A study of Mus musculus with 12 samples.

Results

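The genes of voltage-gated and potassium ion channels were followed in mouse hearts 8 h after surgery. Members were all genes whose single symbol on the array begins with Kcn (potassium channels and their partners), Scn and a digit (sodium channels), Cacn (calcium channels) or Hcn and a digit (pacemaker channels). The rule found 96 genes of the 12393 with a single symbol, measured by 139 probe sets. Membership went by symbol and used no measured value, but the rule was chosen with earlier results of these data known. Where a gene had several probe sets, the one with the highest mean log2(signal + 16) stood for it. A mean signal under 17 over the 12 arrays was marked as near background, which left 25 of the 96 members at or above that level and 71 below it.

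The study gave C57Bl/6 mice, their age not stated in the labels, either surgery for myocardial infarction (MI) or a sham operation, in 4 groups of 3 mice. Wake MI and wake sham mice were operated on between ZT13 and ZT15 and killed at ZT23. Sleep MI and sleep sham mice were operated on between ZT1 and ZT3 and killed at ZT11. Zeitgeber time (ZT) is the number of hours since the lights came on, and mice are active in the dark. MI samples were taken from the infarcted heart muscle per the labels, which name no region for the sham hearts, so infarction and the region sampled cannot be told apart. The hour of surgery and the hour of collection moved together and cannot be told apart either. Signals are MAS5 intensities on a linear scale, 1 value per probe set and array. Only values of the same probe set, or sums over the same probe sets, are compared between arrays.

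Ion channels of the heart carry the currents of each beat. Sodium channels start the action potential, L-type calcium channels hold its plateau and trigger contraction, and a row of potassium channels ends it and sets the resting potential, while pacemaker channels drive automatic firing. Each channel is a pore with auxiliary subunits that set how much of it reaches the membrane and how it gates. Transcripts of several of these genes, Kcna5, Kcnd2 and Kcnip2 among them, are known to cycle over the day in rodent hearts.

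A pair of members, Kcne4 and Kcnj8, differed between MI and sham hearts at both times of day, and the region around their transcription start is shown for that reason. The 300 bases run from 250 before to 50 after the start in RefSeq's annotation of GRCm38.p6, 5′ to 3′ on the gene's own strand. Kcne4 lies on the plus strand at chr1:78816661-78816960 and Kcnj8 on the minus strand at chr6:142571565-142571864. Capitals mark an E-box, the letters CACGTG.
Kcne4: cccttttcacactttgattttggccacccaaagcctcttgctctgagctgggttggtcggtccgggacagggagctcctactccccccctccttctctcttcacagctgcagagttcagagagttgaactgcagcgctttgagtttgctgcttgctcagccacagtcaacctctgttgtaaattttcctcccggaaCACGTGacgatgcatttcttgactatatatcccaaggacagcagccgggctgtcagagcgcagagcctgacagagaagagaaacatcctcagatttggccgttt
Kcnj8: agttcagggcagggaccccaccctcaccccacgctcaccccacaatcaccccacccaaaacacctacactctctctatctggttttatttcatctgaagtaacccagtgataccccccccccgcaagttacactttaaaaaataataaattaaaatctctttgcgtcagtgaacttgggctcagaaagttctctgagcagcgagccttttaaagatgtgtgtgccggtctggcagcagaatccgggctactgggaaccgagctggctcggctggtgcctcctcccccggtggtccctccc
Of 6 motifs searched on both strands, the E-box (CACGTG), the AP-1 site (TGACTCA), the CRE (TGACGTCA), the TATA box (TATAAA), the GC box (GGGCGG) and the D-box (TTATGTAA), only the E-box was found in the Kcne4 window, at bases 197 to 202, and none in the Kcnj8 window. The E-box is in 7.15% of 32851 RefSeq promoter windows of this length, the AP-1 site in 5.2%, the CRE in 1.79%, the TATA box in 13.6%, the GC box in 35.7% and the D-box in 0.938%.

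All 12 arrays had a 2% trimmed mean signal of 150.1 and median signals of 32.7 to 34.7, and none was a copy of another. Correlations of log2(signal + 16) were 0.974 to 0.988 within groups and 0.949 to 0.989 between groups. A measure of RNA integrity, the 3′/5′ ratio of the beta-actin controls, was 2.17 to 3.31 in wake MI, 1.77 to 1.81 in wake sham, 2.09 to 2.92 in sleep MI and 1.94 to 2.49 in sleep sham mice. The wake groups did not overlap in this ratio. RNA integrity and MI therefore cannot be told apart at the wake time, also not by a covariate. Cardiomyocyte markers were present on all arrays, with 10 of 10 above the level filter. The 7 atrial markers, of which Bmp10 was under 17, summed to 1209 to 1652 in wake MI, 1963 to 15343 in wake sham, 2049 to 3168 in sleep MI and 1928 to 4984 in sleep sham mice. Among them Myl7, the atrial myosin light chain, had signals of 0.727 to 3.07 in wake MI hearts, against 79.3 to 3476 in wake sham hearts, the highest in replicate 3. At the sleep time Myl7 had 121 to 550.1 in MI hearts and 11.5 to 256 in sham hearts. Neutrophil markers summed to 943 to 1331 in wake MI, 143 to 538 in wake sham, 1090 to 1968 in sleep MI and 295 to 873 in sleep sham mice. Such sums weigh most on the brightest genes of a list. Among the fibroblast markers given below, for example, Dcn had a mean signal of 4934 and Col1a1 one of 83.7. The part of RNA integrity, atrial tissue and infiltrating cells in the differences below was not tested beyond the values given.

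Differences were tested with limma on log2(signal + 16) over the 8109 genes whose mean signal reached 17.3, the 40th percentile over the array's non-control probe sets, and were called at a Benjamini-Hochberg adjusted p below 0.05 over all of them. Of the 96 members, 24 were tested, so the counts below speak of those 24 and not of the family. Over both times of day 4 members were called between MI and sham hearts, 1 higher (Kcne4) and 3 lower (Kcnj8, Kcnj3 and Cacna1h). That is 16.7% of the 24, against 22.2% of all genes tested, of which 8.57% were called higher and 13.6% lower. At the wake time 3 of the 24 were called, Kcne4 higher and Kcnj8 and Cacnb2 lower, which is 12.5% against a background of 18.4% (7.81% higher, 10.6% lower). At the sleep time 2 were called, Kcne4 higher and Kcnj8 lower, which is 8.33% against 2.66% (1.69% higher, 0.974% lower). The median log2 difference of the 24 members was -0.12 over both times, -0.15 at the wake time and -0.16 at the sleep time, and that of all genes was -0.06, -0.06 and -0.05. The signs over both times were 9 above and 15 below 0 among the 24 members, and 3242 above and 4867 below 0 among all 8109 genes.

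**Figure D1:**
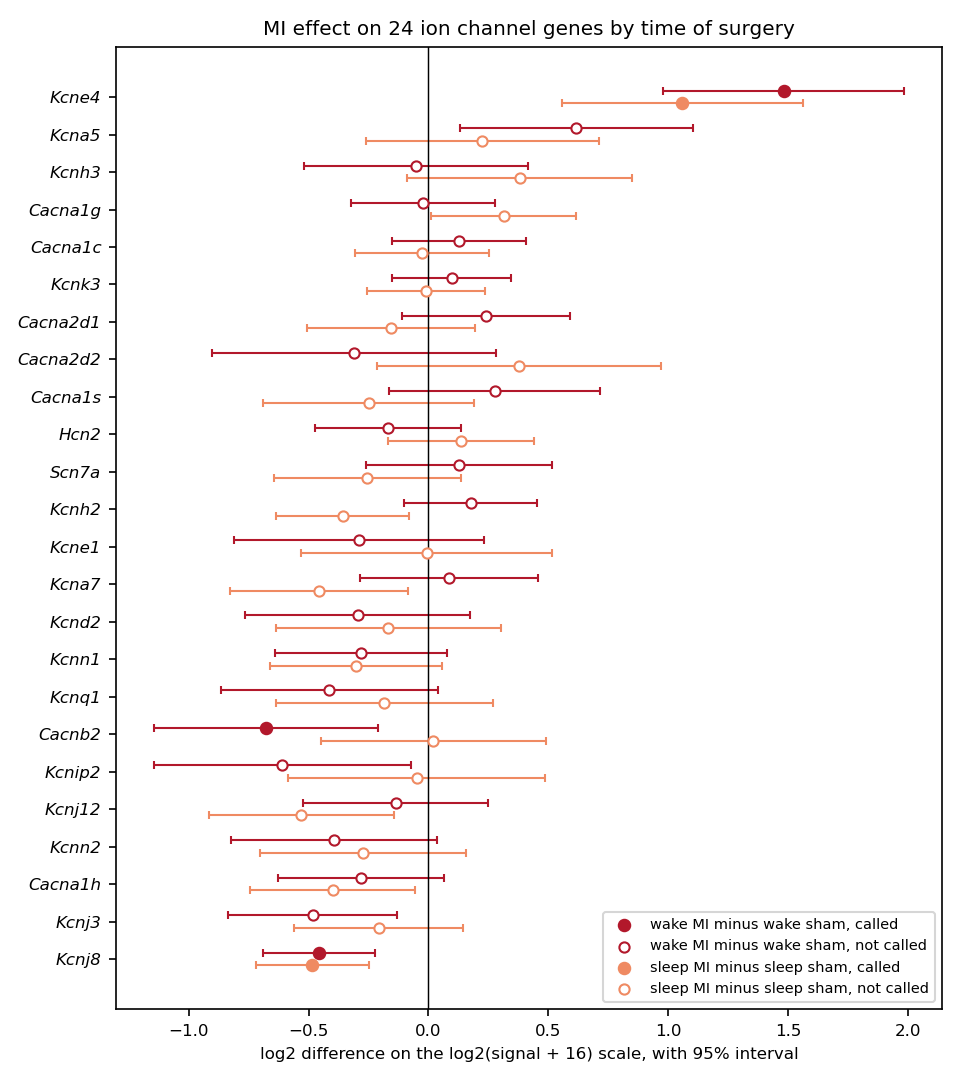
The log2 difference of MI minus sham on the log2(signal + 16) scale (x axis) for the 24 tested ion channel genes (y axis), with 95% intervals, at the wake time (dark red) and the sleep time (orange), n = 3 mice per group. Filled points were called at an adjusted p below 0.05: Kcne4 and Kcnj8 at both times and Cacnb2 at the wake time.

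Kcne4, an auxiliary subunit that damps currents of several voltage-gated potassium channels when expressed with them, was the member that rose. Its signals were 120.2, 153 and 132 in the wake MI hearts, against 41.3, 25.1 and 50.3 in the wake sham hearts. At the sleep time they were 103, 106 and 102 in MI hearts, against 70.6, 39.8 and 23.3 in sham hearts. All 6 MI hearts lay above all 6 sham hearts. The log2 difference over both times was 1.27 (SE 0.17, adjusted p = 0.000195), a 2.41-fold higher level on the log2(signal + 16) scale. It was 1.48 at the wake time (SE 0.23, adjusted p = 0.00114) and 1.06 at the sleep time (SE 0.23, adjusted p = 0.0292). The difference between these 2 effects was 0.42 with a 95% interval of -0.29 to 1.14 (adjusted p = 0.687). In bulk tissue such as this, more cells of a type and more RNA per cell cannot be told apart. Neutrophil markers moved the same way, with 4 of 5 tested called higher over both times and at the wake time and 1 at the sleep time. Of 8 endothelial markers tested, 3 were called higher over both times, 2 at the wake time and 0 at the sleep time, where 2 had an unadjusted p below 0.05. Tek and Emcn of that list went the other way at the wake time, without being called. Tek had 218, 167 and 430 in wake MI and 384, 390 and 401 in wake sham hearts. Emcn had 395, 405 and 562 in wake MI and 634, 527 and 767 in wake sham hearts. The 8 markers summed to 2711 to 3793 in wake MI, 2691 to 2808 in wake sham, 2786 to 3071 in sleep MI and 2379 to 2921 in sleep sham mice. The part of these cells in the Kcne4 difference was not tested. With the beta-actin ratio or the atrial marker level as a covariate the wake difference was 1.28 (adjusted p = 0.0560) and 1.42 (adjusted p = 0.0687), and the sleep difference was 1.01 (adjusted p = 0.0555) and 1.08 (adjusted p = 0.0524). At the wake time these fits cannot separate the covariate from MI, as neither the ratio nor Myl7 overlapped between the wake groups. The sleep call of Kcne4 was also lost without any 1 of the sleep MI hearts or of sleep sham replicates 2 and 3, where the difference was 0.79 to 1.07 and adjusted p was 0.0615 to 0.109.

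Kcnj8 encodes Kir6.1, a pore of the ATP-sensitive potassium channels that couple metabolism to membrane potential, best known in vascular smooth muscle. Its signals were 194, 209.6 and 223 in the wake MI hearts and 305, 313 and 262 in the wake sham hearts. At the sleep time they were 242, 207 and 219 in MI hearts and 317, 291 and 345 in sham hearts. Every MI heart was below every sham heart. Kcnj8 fell by 0.47 on the log2 scale over both times (SE 0.08, adjusted p = 0.00105), by 0.46 at the wake time (SE 0.11, adjusted p = 0.0118) and by 0.48 at the sleep time (SE 0.11, adjusted p = 0.0310). The effects at the 2 times differed by 0.03 with a 95% interval of -0.31 to 0.36 (adjusted p = 0.968). With the beta-actin ratio or the atrial marker level as a covariate its wake difference was -0.50 (adjusted p = 0.0940) and -0.48 (adjusted p = 0.189). As for Kcne4, these wake fits cannot separate the covariate from MI. The sleep call was lost with the atrial covariate (adjusted p = 0.0691), with the replicate number as a block (adjusted p = 0.0557), and without any 1 of the sleep MI hearts or of sleep sham replicates 1 and 3, where adjusted p was 0.0717 to 0.130. Over all 24 alternatives the sleep difference of Kcnj8 stayed between -0.54 and -0.41. Of 7 fibroblast markers tested, 3 were called lower over both times and 3 at the wake time, with a median of -0.68 there. At the sleep time 0 were called and 0 had an unadjusted p below 0.05, with a median of -0.12. They summed to 5462 to 7068 in wake MI, 8066 to 11999 in wake sham, 7504 to 9876 in sleep MI and 7620 to 10744 in sleep sham mice.

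The partner of Kir6.1, the sulfonylurea receptor SUR2, is encoded by Abcc9, the gene next to Kcnj8 on chromosome 6. Abcc9 had signals of 302, 278 and 249 in wake MI, 285, 300.1 and 283 in wake sham, 363, 273 and 286 in sleep MI, and 259, 278 and 296 in sleep sham mice. The groups overlapped at both times, and its log2 difference over both times was 0.03 (SE 0.08, adjusted p = 0.832). The smooth muscle and pericyte markers, 7 tested of 8 with Cnn1 under 17, gave no call over both times and none at an unadjusted p below 0.05. At the sleep time 0 were called and 2 had an unadjusted p below 0.05, with a median of 0.09. The wake time had 0 of either, with a median of -0.07. The part of these cells and of fibroblasts in the Kcnj8 difference was not tested. The sums of the smooth muscle and pericyte markers were 4398 to 5382 in wake MI, 4743 to 5635 in wake sham, 4680 to 5202 in sleep MI and 4448 to 4874 in sleep sham mice. The cardiac pore of the same channel type, Kir6.2 (Kcnj11), had a mean of 16.9, just under the background mark, and was not tested. Its group means were 13.1 ± 8.22 in wake MI, 22.8 ± 2.22 in wake sham, 14.6 ± 1.47 in sleep MI and 17.2 ± 0.567 in sleep sham mice (SD, n = 3 each).

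**Figure D2:**
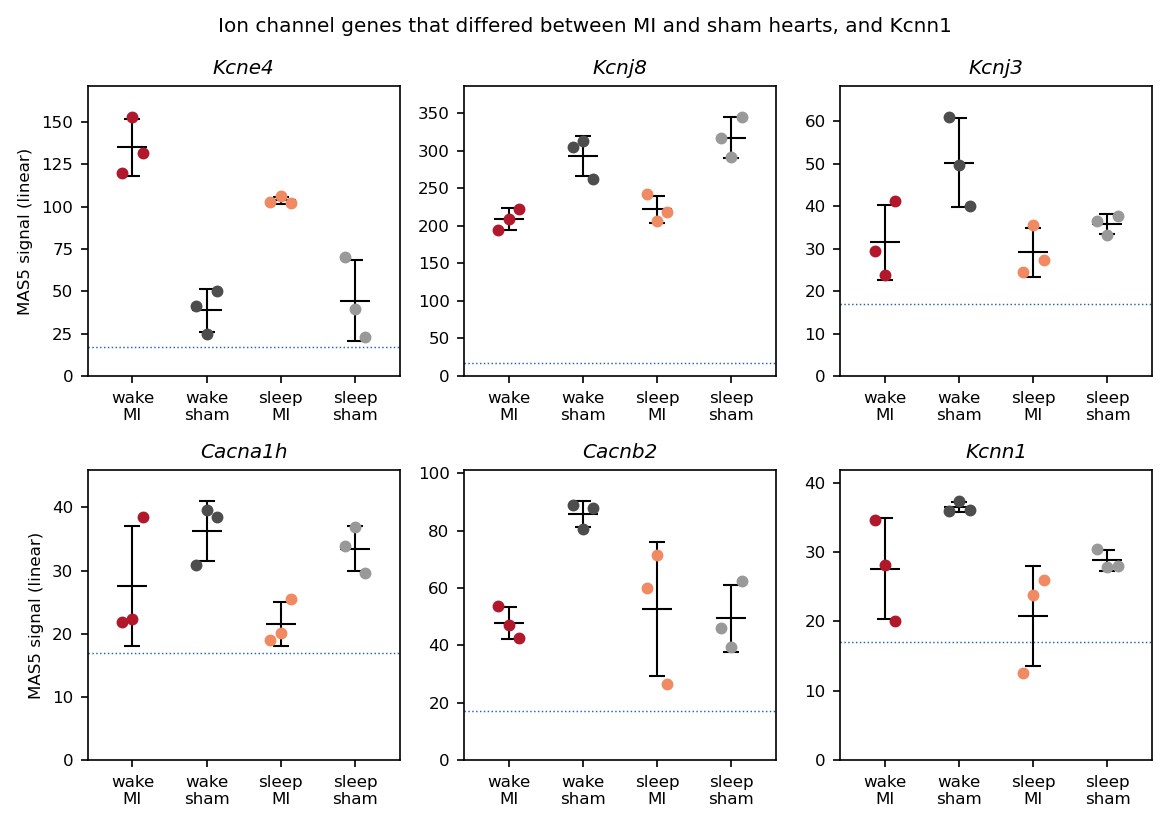
MAS5 signal on a linear scale (y axis) on each array (points) in the 4 groups (x axis), with the mean and SD as bars (n = 3 mice per group), for the 5 called members and Kcnn1. The dotted line is the background mark of 17. Kcne4 was higher and Kcnj8 was lower in every MI heart than in every sham heart of the same time, as was the Kcnn1 probe set plotted, which is 1 of 2.

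Kcnj3 encodes Kir3.1, which with Kir3.4 (Kcnj5) forms the potassium channel that acetylcholine opens in atrial and nodal cells. Its signals were 29.4, 23.9 and 41.2 in wake MI hearts and 61.0, 49.6 and 39.96 in wake sham hearts. The sleep groups had 24.5, 35.5 and 27.4 in MI hearts and 36.6, 33.2 and 37.7 in sham hearts. One MI heart overlapped the sham range at each time. Kcnj3 fell by 0.35 on the log2 scale over both times (SE 0.12, adjusted p = 0.0475). Neither time alone passed the threshold, with -0.48 at the wake time (adjusted p = 0.0551) and -0.21 at the sleep time (adjusted p = 0.571). The call was lost in 15 of 22 alternative settings, among them 9 of the 12 that left out 1 array, where adjusted p was 0.0586 to 0.116, and held without replicate 3 of either wake group or replicate 2 of sleep MI. Atrial markers differed between the wake groups as given above, with 3 of the 6 tested called lower in wake MI hearts. Myl7 did not overlap between the wake groups, with 0.727 to 3.07 in MI and 79.3 to 3476 in sham hearts. Atrial tissue and MI therefore cannot be told apart at the wake time, also not by a covariate. With the level of Myl7, Myl4 and Sln as a covariate, limma gave Kcnj3 -0.42 over both times (adjusted p = 0.0381). Its partner Kcnj5 was near background with a mean of 8.05 and was not tested.

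Of the calcium channel pores, 4 of 9 were tested. Cacna1h, the T-type channel Cav3.2, had signals of 21.8, 22.3 and 38.5 in wake MI hearts, against 30.9, 39.5 and 38.5 in wake sham hearts. Sleep hearts had 19.0, 20.2 and 25.5 after MI and 33.9, 36.9 and 29.7 after sham surgery. The sleep groups did not overlap, while wake MI replicate 3 lay inside the wake sham range. Cacna1h fell by 0.34 on the log2 scale over both times (SE 0.11, adjusted p = 0.0458), with -0.28 at the wake time (adjusted p = 0.242) and -0.40 at the sleep time (adjusted p = 0.226). The call was lost in 14 of 22 alternative settings, among them 9 that left out 1 array, with adjusted p of 0.0571 to 0.0997, and held without replicate 3 of either MI group or replicate 1 of wake sham. Averaging its probe sets, of which the other had a mean signal of 5.66, gave -0.12 (adjusted p = 0.291).

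The other T-type pore, Cacna1g (Cav3.1), averaged 32.8 ± 3.86 in wake MI, 33.5 ± 4.33 in wake sham, 39.2 ± 2.30 in sleep MI and 28.7 ± 6.32 in sleep sham mice (SD, n = 3 each). Over both times its log2 difference was 0.15 (95% interval -0.07 to 0.36, adjusted p = 0.315). Cacna1c, the L-type channel Cav1.2 of ventricular muscle, had 454, 514 and 429 in wake MI, 434, 492 and 357 in wake sham, 406, 372 and 472 in sleep MI, and 385, 451 and 436 in sleep sham mice. The 4 groups of Cacna1c overlapped throughout. Its log2 difference between MI and sham hearts over both times was 0.05, with a 95% interval of -0.15 to 0.25 (adjusted p = 0.746). The skeletal muscle L-type pore Cacna1s had signals of 10.9 to 34.3 and a difference of 0.01 over both times (adjusted p = 0.958).

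Auxiliary subunits set how much Cav1.2 reaches the membrane. Cacnb2, the β2 subunit that carries the pore to the surface, had 53.6, 47.3 and 42.4 in wake MI hearts, against 88.9, 80.7 and 87.9 in wake sham hearts. In the sleep groups it had 60.2, 71.6 and 26.4 in MI hearts and 46.2, 39.5 and 62.5 in sham hearts. The wake sham hearts stood above all 9 others. Cacnb2 fell by 0.68 on the log2 scale at the wake time (SE 0.22, adjusted p = 0.0444), and its difference at the sleep time was 0.02 (adjusted p = 0.978). The difference between these effects was -0.70, with a 95% interval of -1.36 to -0.04 and an adjusted p of 0.453. The wake call was lost in 15 of 23 alternative settings, among them those that left out any 1 of the 6 wake hearts, sleep MI replicate 1 or sleep sham replicate 1, with adjusted p of 0.0505 to 0.117. With that ratio of beta-actin as a covariate it was -0.18 (adjusted p = 0.736), and with the atrial marker level -0.48 (adjusted p = 0.492). Wake sham hearts had both the highest Cacnb2 signals and the lowest beta-actin ratios of the 4 groups. The part of RNA integrity in the Cacnb2 difference was not tested. Cacna2d1 and Cacna2d2, which encode α2δ subunits, were not called, with differences over both times of 0.04 (adjusted p = 0.828) and 0.04 (adjusted p = 0.917). Cacna2d2, at a mean of 21.4, ranged from 3.69 to 33.9 among the wake MI hearts alone.

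The voltage-gated potassium pores, 6 of 20 tested, gave no call between MI and sham hearts at either time. Kcna5, the pore Kv1.5 of an ultrarapid repolarizing current, had 308, 402 and 356 in wake MI hearts and 172, 359 and 182 in wake sham hearts. The sleep groups had 380.4, 439 and 503 in MI hearts and 431, 410.5 and 292 in sham hearts. The wake sham hearts split, with replicate 2 near the level of the other groups and replicates 1 and 3 below all other hearts. Its log2 difference was 0.42 over both times (SE 0.16, adjusted p = 0.0743) and 0.62 at the wake time (SE 0.23, adjusted p = 0.0734). Without wake sham replicate 2, the heart that opposed the difference, these were 0.58 (adjusted p = 0.00470) and 0.94 (adjusted p = 0.00443). That setting was the only 1 of 23 alternatives over both times, and of 24 at the wake time, that called Kcna5. In the others adjusted p reached 0.42 over both times and 0.71 at the wake time.

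Kcnh2, the pore of the rapid delayed rectifier, had 227, 185 and 189 in wake MI hearts and 204, 153 and 170.3 in wake sham hearts. Sleep MI hearts had 169.8, 166 and 155 and sleep sham hearts 243, 217 and 186. Its log2 difference was 0.18 at the wake time (adjusted p = 0.370) and -0.36 at the sleep time (adjusted p = 0.174), where the groups did not overlap. The difference between these effects was 0.54, with a 95% interval of 0.14 to 0.93, and did not pass the adjustment over all genes (adjusted p = 0.329). Kcnq1, the pore of the slow delayed rectifier, averaged 114 ± 35.8 in wake MI, 153 ± 6.11 in wake sham, 115 ± 33.8 in sleep MI and 132 ± 36.3 in sleep sham mice (SD, n = 3 each). Its difference over both times was -0.30 (95% interval -0.62 to 0.02, adjusted p = 0.167). Its partner Kcne1 averaged 40.2 ± 10.4 in wake MI, 52.6 ± 11.6 in wake sham, 73.5 ± 22.1 in sleep MI and 75.5 ± 31.8 in sleep sham mice (SD, n = 3 each), with a difference of -0.15 over both times (adjusted p = 0.580).

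Kcnd2, the pore Kv4.2 of the fast transient outward current, averaged 76.8 ± 27.6 in wake MI, 96.3 ± 22.4 in wake sham, 103 ± 27.5 in sleep MI and 117 ± 23.7 in sleep sham mice (SD, n = 3 each). Its 3 probe sets did not share a sign over both times, with -0.23, 0.15 and -0.10 and none called. The subunit that Kv4.2 needs for full current, KChIP2 (Kcnip2), had 78.9, 53.5 and 27.2 in wake MI hearts and 89.1, 75.0 and 89.8 in wake sham hearts. Sleep hearts had 82.4, 74.1 and 45.3 after MI and 61.9, 57.3 and 89.4 after sham surgery. Wake MI replicate 1 overlapped the wake sham range, and the wake difference of Kcnip2 was -0.61 (SE 0.25, adjusted p = 0.104). Without that heart it was -0.87 (adjusted p = 0.0258), the only 1 of 24 alternatives that called it. Over these alternatives the wake difference of Kcnip2 ran from -0.87 to 0.09. Kcna7, the pore Kv1.7, had 63.8, 49.2 and 49.4 in wake MI hearts and 47.5, 48.8 and 52.9 in wake sham hearts. In the sleep groups, which did not overlap, it had 44.8, 45.3 and 21.8 in MI hearts and 57.0, 59.9 and 49.9 in sham hearts, a difference of -0.46 (adjusted p = 0.194). Kcnh3, of the same family as Kcnh2, had signals of 10.7 to 37.2 and a difference of 0.16 over both times (adjusted p = 0.486).

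Among the remaining potassium pores, Kcnj12 (Kir2.2), which helps to hold the resting potential, had 39.9, 45.6 and 38.8 in sleep MI hearts, against 79.8, 68.3 and 54.3 in sleep sham hearts. Those groups did not overlap, but the difference of -0.53 missed the threshold (SE 0.18, adjusted p = 0.147). At the wake time Kcnj12 had 61.2, 44.7 and 47.9 in MI hearts and 48.8, 83.0 and 45.9 in sham hearts, with a difference of -0.14 (adjusted p = 0.639). For the small-conductance calcium-activated channel gene Kcnn1, the probe set that stands for it was lower in every MI heart than in every sham heart of the same time. It had 34.6, 28.2 and 20.0 in wake MI, 36.0, 37.4 and 36.1 in wake sham, 12.5, 23.8 and 26.0 in sleep MI, and 30.5, 27.9 and 28.0 in sleep sham mice. Its difference of -0.29 over both times was not called (SE 0.12, adjusted p = 0.0905). The other probe set of Kcnn1, with a mean signal of 27.6, overlapped between MI and sham hearts at both times. It had 25.3, 15.7 and 32.1 in wake MI, 43.3, 25.4 and 35.3 in wake sham, 23.01, 21.4 and 28.5 in sleep MI, and 26.6, 21.4 and 33.2 in sleep sham mice, with a difference of -0.21 over both times (adjusted p = 0.269). Kcnn2, of the same family, had a difference of -0.33 (SE 0.14, adjusted p = 0.104), which was -0.45 without sleep MI replicate 1 (adjusted p = 0.0272). That heart opposed the difference, with the highest Kcnn2 signal of the MI hearts, 55.5. No other of the 22 alternatives called Kcnn2, and its difference ran from -0.46 to -0.18 over them.

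Non-overlap by itself was common on these arrays. The members whose MI and sham hearts did not overlap numbered 5 of 24 at the wake time and 8 of 24 at the sleep time, against 35.2% and 23.5% of all genes tested. Those that did so in the same direction at both times were Kcne4, Kcnj8 and Kcnn1, 3 of 24, against 11.3% of all genes, and for Kcnn1 this held in 1 of its 2 probe sets.

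Kcnk3 encodes TASK-1, a two-pore channel of background potassium current. The probe set that stands for it had 599, 669 and 677 in wake MI, 640.5, 584 and 590.3 in wake sham, 598, 581 and 641 in sleep MI, and 704, 634 and 509.6 in sleep sham mice. These groups overlapped at both times, with a log2 difference over both times of 0.04 (95% interval -0.13 to 0.22, adjusted p = 0.744). A dimmer probe set of Kcnk3 had 12.2, 48.0 and 37.4 in wake MI, 49.9, 44.8 and 63.2 in wake sham, 50.7, 40.5 and 23.3 in sleep MI, and 57.3, 74.7 and 62.1 in sleep sham mice. When all probe sets were tested one by one, the dimmer one was called lower over both times, at -0.59 (SE 0.18, adjusted p = 0.0375), so the 2 probe sets of this gene disagree. A probe set of Kcnk3 with a mean signal of 14.98 was below the filter.

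**Figure D3:**
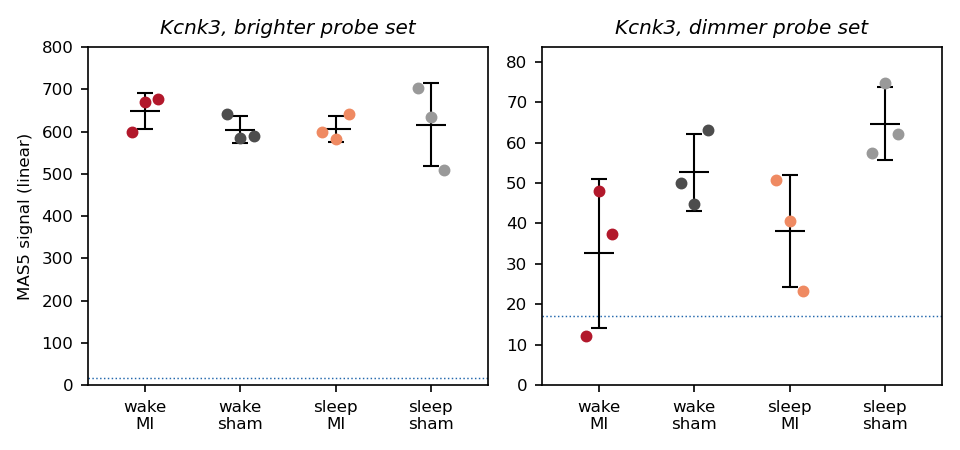
MAS5 signal on a linear scale (y axis) of 2 probe sets of Kcnk3 on each array (points) in the 4 groups (x axis), with the mean and SD as bars (n = 3 mice per group) and the background mark of 17 as a dotted line. The brighter one overlaps between MI and sham hearts at both times, and the dimmer one has its lowest signals, 12.2 and 23.3, in MI hearts.

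The pacemaker and sodium channel families were thinly measured. Hcn2 averaged 44.4 ± 6.51 in wake MI, 52.3 ± 11.5 in wake sham, 56.6 ± 2.10 in sleep MI and 50.3 ± 6.54 in sleep sham mice (SD, n = 3 each). Its difference over both times was -0.02 (95% interval -0.23 to 0.20, adjusted p = 0.920). Scn7a, a sodium-sensing relative of the voltage-gated sodium channels, was the 1 tested of 9 sodium channel members, with signals of 11.6 to 33.0 and a difference of -0.06 (adjusted p = 0.766). Of the channel genes listed for their known part in the heart beat, 16 were tested. Cacna1d, Kcnd3, Kcna4, Kcnj2, Kcnj5 and Kcnj11 were below the filter, with mean signals of 1.02 to 16.9.

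Time of day was compared within each surgery. Between wake and sleep MI hearts limma called 0 of the 24 members, against 0.074% of all genes. An unadjusted p below 0.05 was found for 2 of the 24 (Kcna7 and Kcne1) and for 540 of all 8109 genes. Between wake and sleep sham hearts it called 0 of 24, against 1.52% of all genes. There 3 of 24 (Kcna5, Cacnb2 and Cacna2d1) and 1091 of 8109 genes had an unadjusted p below 0.05. The test of whether the MI effect differed between the times called 0 of 24 members and 0% of all 8109 genes. In it 3 members (Kcnh2, Cacnb2 and Kcna7) and 851 of all genes had an unadjusted p below 0.05. Groups did not overlap in 5 of 24 members between the MI groups (10.9% of all genes) and in 5 of 24 between the sham groups (20.1% of all genes).

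In the sham hearts Cacna2d1, the α2δ-1 subunit, had 18.0, 20.2 and 15.6 at the wake time and 37.4, 32.4 and 26.3 at the sleep time. The difference of -0.50 between these groups, which did not overlap, missed the threshold (SE 0.16, adjusted p = 0.177). The opposite order held for Cacnb2, with 88.9, 80.7 and 87.9 in wake sham and 46.2, 39.5 and 62.5 in sleep sham hearts, a difference of 0.65 (SE 0.22, adjusted p = 0.184). Without sleep MI replicate 3, whose Cacnb2 signal of 26.4 was the lowest, that difference had an adjusted p of 0.0441, the only 1 of 23 alternatives that called it. That heart is in neither sham group, so leaving it out changed the shared estimate of the spread and not the difference. Kcna5 differed by -0.69 between wake and sleep sham hearts (SE 0.23, adjusted p = 0.175), and by -1.01 without wake sham replicate 2 (adjusted p = 0.00808). No other of the 24 alternatives called this Kcna5 difference, and adjusted p reached 0.67 among them. For Kcnip2 the sham difference was 0.25, with a 95% interval of -0.29 to 0.79 (adjusted p = 0.710), and for Kcnd2 it was -0.25, with an interval of -0.72 to 0.22 (adjusted p = 0.671). In the MI hearts the largest difference among the 24 members was that of Kcne1, at -0.66 (SE 0.24, adjusted p = 0.676). Clock output genes measured on the same arrays did pass between the sham groups. Dbp differed by -2.99 (adjusted p = 9.4e-05) and Nfil3 by 1.35 (adjusted p = 0.000438).

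**Figure D4:**
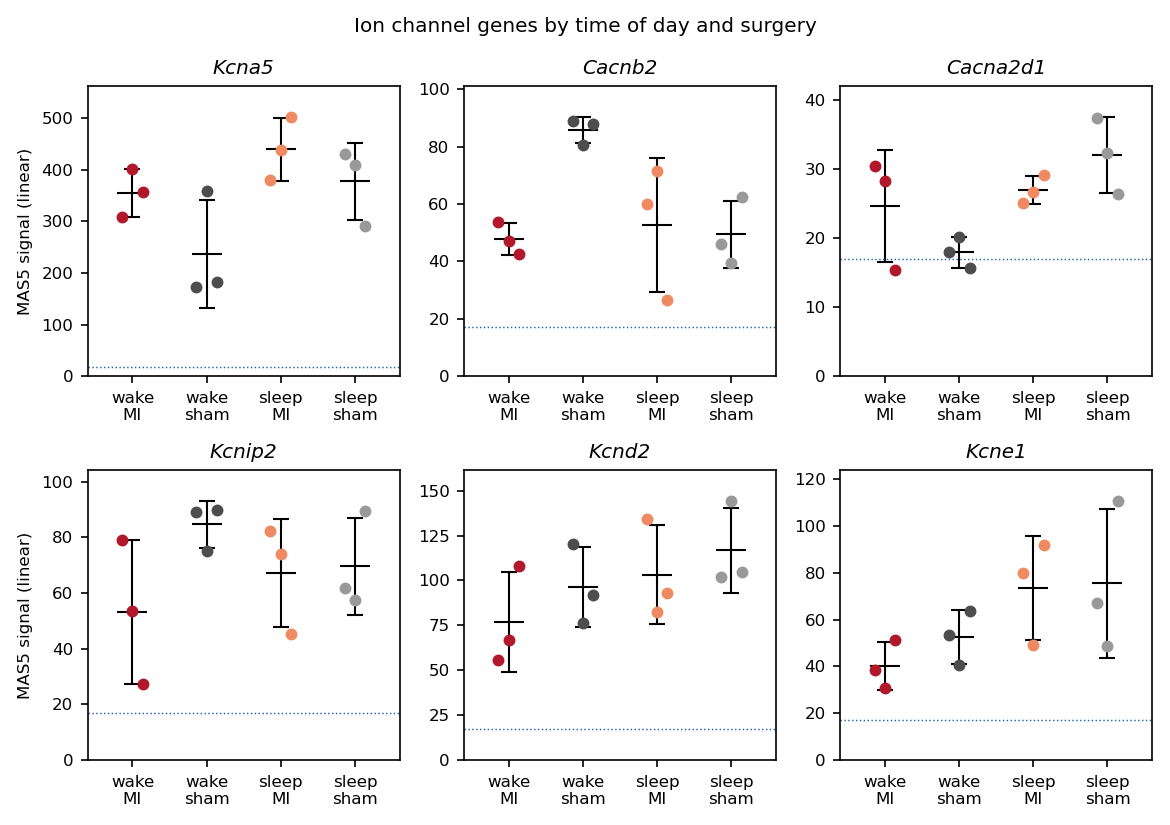
MAS5 signal on a linear scale (y axis) of 6 ion channel genes on each array (points) in the 4 groups (x axis), with the mean and SD as bars (n = 3 mice per group) and the background mark of 17 as a dotted line. Wake sham hearts stand high for Cacnb2 (80.7 to 88.9) and low for Cacna2d1 (15.6 to 20.2), and for Kcna5 they split between 172 and 359.

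Most members were near background. The 71 had mean signals from 0.673 to 16.9 with a median of 5.01, and 59 of them were below 17 on every array. By family these were 14 of 20 voltage-gated potassium pores, 10 of 13 inward rectifiers, 7 of 8 two-pore channels, 7 of 9 calcium- or sodium-activated potassium channels and 8 of 12 auxiliary potassium subunits. For the other families they were 8 of 9 sodium channel genes, 5 of 9 calcium pores, 11 of 14 calcium channel auxiliary subunits and 1 of 2 pacemaker genes. A signal this low bounds the RNA only by what these probes can detect and does not show that a channel is absent. Kcnip1, at 17.3, lay between the background mark and the filter and was not tested. Those with a group mean of 17 or more were Cacnb1, Kcna1 and Kcnj11. Kcna1, which neighbours Kcna5, averaged 13.5 ± 5.52 in wake MI, 21.2 ± 4.93 in wake sham, 15.5 ± 5.07 in sleep MI and 14.3 ± 5.89 in sleep sham mice (SD, n = 3 each).

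Other genes of cardiac excitation were counted in lists, beside which all genes tested had 22.2% called over both times and a median of -0.06. Of all 8109 genes, 2954 had an unadjusted p below 0.05 in that comparison. The pumps, exchangers and calcium release genes (10 tested of 14) gave 0 calls over both times by limma and 0 at an unadjusted p below 0.05, with a median log2 difference of 0.09. Gap junction and intercalated disc genes (9 tested of 10) gave 0 calls and 1 at an unadjusted p below 0.05, with a median of -0.04. Of channel anchors and regulators (13 tested of 23) 3 rose and 10 were not called, with a median of 0.03. The 3 were Rrad and Gem, small GTPases that bind calcium channel β subunits and curb L-type current, and Sgk1, a kinase that raises the surface level of several channels. Rrad had 1149, 974.5 and 1669.9 in wake MI hearts, 842, 892 and 953 in wake sham hearts, 1754, 1569 and 1269 in sleep MI hearts, and 769.6, 481 and 361 in sleep sham hearts. All 6 MI hearts were above all 6 sham hearts, and the log2 difference of Rrad was 0.997 over both times (SE 0.16, adjusted p = 0.00106). Gem had 40.2, 41.7 and 49.6 in wake MI hearts, against 12.1, 14.5 and 18.0 in wake sham hearts, with overlapping sleep groups and a difference of 0.85 over both times (SE 0.18, adjusted p = 0.00540). Sgk1 differed by 0.89 over both times (adjusted p = 0.000591). Of other ion channels (11 tested of 22) Clic4 rose by 0.47 (adjusted p = 0.00159) and P2rx4 fell by 0.36 (adjusted p = 0.0239), with a list median of -0.06. Of transcription factors known for conduction and channel expression (17 tested of 19), Nfil3 rose by 1.27, and Gata4 fell by 0.35 (adjusted p = 0.0202) and Irx4 by 0.57 (adjusted p = 0.0122), with a list median of -0.02.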

How the data were processed

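Heart RNA of 12 mice was labelled with biotin and hybridised to Affymetrix arrays, per the labels' protocols. The deposited table holds linear signal intensities, with a row for each probe set and a column for each array. MAS5 made them, per the submitters' processing notes, in a version and with settings not given in the sources used here. Neither detection calls nor scanner files were used, and no batch is named. Precision is limited by having 3 arrays in a group. Of 22690 probe sets, 64 were controls and 20380 had a single symbol in the platform annotation, which stood for 12393 genes. The probe set with the highest mean log2(signal + 16) represented a gene, and genes whose mean signal reached the 40th percentile (17.3) were tested, 8109 in all. The logs of the deposited intensities were fitted with limma 3.58.1 in R 4.3.3, with 1 mean per group, 6 contrasts, a trend in the moderated variances, two-sided tests and Benjamini-Hochberg adjustment over all genes, and calls were made at an adjusted p below 0.05. A fold change on the log2(signal + 16) scale understates the change of dim genes. Intervals cover 95%. The script was tested on simulated data. Members to be named were all those called and a list of genes with a known part in the heart beat, with the rest given by family. Kcna7, Kcnh3, Kcnn1, Kcnn2, Cacna1s, Cacna2d2, Scn7a, Kcna1, Cacnb1 and Kcnip1 fall outside that rule and were named after their values were seen. The members, the lists and this rule were chosen with earlier results of these data known. Alternatives changed the pseudocount, the filter, the scaling, the choice of probe set, the variance trend and the arrays, and added a replicate block, the beta-actin 3′/5′ ratio or the atrial marker level. Same-numbered arrays did not deviate together (correlations of deviations -0.18 to 0.25 over 18 pairs). Promoter sequences are RefSeq's, all 96 members matched its gene table, and 2 of the 5 called genes are printed.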

Additional observations from a re-analysis of the deposited data

How the results depend on the processing

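Of the 9 calls of a member in a comparison, those of Kcne4 and Kcnj8 over both times held in all 23 alternatives run for each. Over both times the count of 4 members was 2 with the filter at the 60th percentile, which no longer tests Kcnj3 and Cacna1h, 2 with quantile normalization and 2 with median centring, and 2 to 4 when 1 array was left out. At the wake time the count of 3 was 0 with the beta-actin ratio and 0 with the atrial marker level as a covariate. In those fits Kcne4 had 1.28 (adjusted p = 0.0560) and 1.42 (adjusted p = 0.0687), and Kcnj8 -0.50 (adjusted p = 0.0940) and -0.48 (adjusted p = 0.189). Neither covariate can be told apart from MI at the wake time. Leaving out 1 array gave 2 to 3. At the sleep time the count of 2 was 1 without a filter, 1 with the beta-actin covariate, 0 with the atrial covariate and 0 with the compared groups alone, and 0 to 2 when 1 array was left out. Without any 1 of the sleep MI arrays or sleep sham replicate 3 it was 0. Between the sham groups the count of 0 was 0 to 1 when 1 array was left out, 1 without wake sham replicate 2 (Kcna5) and 1 without sleep MI replicate 3 (Cacnb2). The replicate numbers were not shown to pair the mice, and with the replicate block the counts were 3 over both times, 2 at the wake time and 1 at the sleep time. Testing all probe sets one by one, an alternative chosen after seeing the data, gave 4, 3 and 2, but over both times Kcnj3 lost its call (adjusted p = 0.0509) and a probe set of Kcnk3 gained one (adjusted p = 0.0375). Quantile normalization or median centring moved the median of all genes to between 0.01 and 0.03 in the comparisons of MI with sham. No called difference changed sign. Apart from what is named, the causes were not tested. The level filter left 72 members without a test.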

Other observations

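Rrad and Cacnb2 meet at the same protein contact, the calcium channel β subunit, and their sham values by time ran the same way. Rrad had 842, 892 and 953 in wake sham and 769.6, 481 and 361 in sleep sham hearts, which did not overlap, with a difference of 0.79 (SE 0.23, adjusted p = 0.132). Its MI effect was 0.46 at the wake time (adjusted p = 0.188) and 1.54 at the sleep time (adjusted p = 0.00383), and the difference between those effects, -1.08, was not called (adjusted p = 0.282). The MI effects of Cacnb2 were -0.68 at the wake time and 0.02 at the sleep time. The sham difference was not called for either gene, and a link between them was not tested.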
